A study of Mus musculus with 22 samples.

Results

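The 10 genes described here encode enzymes and helpers that turn newly made collagen into a crosslinked fibre: the prolyl 4-hydroxylase subunits P4ha1 and P4ha2, the lysyl hydroxylases Plod1, Plod2 and Plod3, the lysyl oxidases Lox, Loxl1 and Loxl2, the collagen chaperone Serpinh1 and the procollagen proteinase enhancer Pcolce. They were taken by symbol from the count tables of both RNA-seq experiments, and all 10 of 10 were found in each table of 48709 genes. All 10 also passed the filter on low counts, a mean above 1 count over the libraries of the experiment. RNA was from heart ventricles of mouse embryos at E13.5 (E, embryonic day), and every embryo carried Nkx2.5-Cre, which deletes floxed genes in cardiac precursor cells and leaves the other cell types of a ventricle in the sample. Experiment 1 held LIN9 wt and LIN9 KO ventricles, taken here as wild-type for Sav1, which their labels do not name. Experiment 2 held 4 genotypes: LIN9 wt with Sav1 wt, LIN9 KO with Sav1 wt, LIN9 wt with Sav1 KO, and the double KO of LIN9 and Sav1. The labels call the LIN9 wt animals wild-type, while by the methods they carried Lin9 fl/+ and so had a floxed allele of their own. LIN9 KO stood for Lin9 fl/fl, Sav1 wt for Sav1 +/+ and Sav1 KO for Sav1 fl/fl. Each of the 6 groups had 3 libraries, 18 in all, and since the labels do not say that they came from separate embryos, p-values measure only the spread between these libraries, which may be technical. The study describes the LIN9 experiments as biological replicates of each other, each done in triplicate. LIN9 is a core subunit of the MuvB complex, which together with B-MYB activates cell cycle genes. With other partners MuvB forms the DREAM complex, which the study describes as a repressor of such genes in non-dividing cells. SAV1 is a scaffold of the Hippo kinases, which restrain the coactivator YAP. The comparisons ask how collagen-modifying genes differ when either gene, or both, is deleted in the developing heart.

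Collagen chains are modified in the endoplasmic reticulum before they leave the cell. Prolyl 4-hydroxylases, made of a catalytic alpha subunit and the shared beta subunit P4hb, hydroxylate prolines and so make the triple helix stable at body temperature. Lysyl hydroxylases prepare lysines for glycosylation and crosslinking, and Plod2 is the form known for the lysines of the telopeptides at the chain ends. The heat shock protein 47 encoded by Serpinh1 binds folded procollagen and escorts it towards the Golgi. Outside the cell, Pcolce enhances the removal of the C-propeptide by Bmp1, and the copper enzymes Lox, Loxl1 and Loxl2 oxidise lysines of collagen and elastin, which then crosslink. In the embryonic heart, fibrillar collagen is made mainly by epicardial, cushion and fibroblast-like cells, and prolyl 4-hydroxylases, Plod2 and Lox are known from other systems as genes induced under low oxygen and by TGF-beta.

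Positions are those of the mm10 build, and all members are protein-coding genes by the GENCODE M21 annotation. P4ha1 is at chr10:59323296-59373304 on the plus strand, P4ha2 at chr11:54100095-54131665 (plus), Plod1 at chr4:147909753-147936767 (minus), Plod2 at chr9:92542223-92608428 (plus) and Plod3 at chr5:136987019-136996648 (plus). Loxl1 is at chr9:58287738-58313186 (minus), Loxl2 at chr14:69609068-69695834 (plus), Serpinh1 at chr7:99345376-99353239 (minus) and Pcolce at chr5:137605103-137613784 (minus). Some exonic bases are shared with other annotated genes, and whether the counting used strand is not given in the sources used here. The share was 11.9% for Plod3, nearly all with Znhit1 on the opposite strand, 6.42% for Plod2, 5.70% for Loxl2 and 2.93% for Pcolce, so reads there may belong to either gene. P4ha1, P4ha2, Plod1, Loxl1 and Serpinh1 shared none.

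Promoter sequences were looked up for 9 of the members in a RefSeq table on GRCm38.p6, and 6 matched: P4ha1, P4ha2, Plod1, Plod3, Serpinh1 and Pcolce. The 250 bases before the start are printed for the pair of prolyl 4-hydroxylase genes, which had the largest changes of the members in experiment 2, and for Serpinh1, which had the smallest there. They are given 5′ to 3′ on the strand of the gene, and capitals mark matches to the core of the hypoxia response element, ACGTG, on either strand, so that a match on the minus strand reads CACGT. The starts are those of RefSeq, and that of P4ha2 lies 829 bases downstream of the outermost GENCODE M21 start of the gene, and that of Pcolce 2380 bases.
P4ha1, chr10:59323046-59323295, plus strand: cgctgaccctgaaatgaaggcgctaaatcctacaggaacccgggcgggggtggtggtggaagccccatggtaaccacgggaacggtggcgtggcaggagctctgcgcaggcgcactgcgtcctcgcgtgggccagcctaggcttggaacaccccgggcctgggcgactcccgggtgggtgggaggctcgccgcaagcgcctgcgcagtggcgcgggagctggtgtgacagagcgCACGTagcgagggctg
P4ha2, chr11:54100674-54100923, plus strand: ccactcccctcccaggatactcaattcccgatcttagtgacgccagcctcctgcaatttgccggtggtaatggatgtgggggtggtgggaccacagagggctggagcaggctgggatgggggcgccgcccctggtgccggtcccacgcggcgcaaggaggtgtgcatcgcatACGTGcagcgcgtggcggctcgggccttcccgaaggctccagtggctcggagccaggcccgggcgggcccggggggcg
Serpinh1, chr7:99353240-99353489, minus strand: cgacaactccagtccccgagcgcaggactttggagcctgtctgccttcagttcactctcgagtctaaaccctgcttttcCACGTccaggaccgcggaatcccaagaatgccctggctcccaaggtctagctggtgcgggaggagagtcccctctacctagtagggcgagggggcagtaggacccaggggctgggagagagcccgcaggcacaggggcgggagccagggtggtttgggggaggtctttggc

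The letters ACGTG were present on one of the strands in 4 of the 6 promoters, at -16 to -12 from the start in P4ha1 (minus strand), at -78 to -74 in P4ha2 (plus), at -54 to -50 in Plod3 (plus) and at -171 to -167 in Serpinh1 (minus). Of all 32851 promoters in the table, 16.6% held the same letters in a window of this length. The cell cycle homology region TTTGAA, the motif known for MuvB binding, and its variant TTCGAA were in none of the 6, against 16.0% and 1.34% of all promoters. CCAAT was present in Plod3 (-188 to -184, minus strand; 33.8% of all promoters) and TATAAA in Plod1 (-232 to -227, minus strand; 12.4%). These motifs do not overlap each other, and a match of letters is a description and not a bound site. The GC content was 69.6% for P4ha1, 70.0% for P4ha2 and 63.6% for Serpinh1, above the 52.4% that was the median of all promoters.

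Total counts were between 9485599 and 9615274 per library in experiment 1 and between 2770741 and 2999877 in experiment 2. The members were well covered, from 464 counts of Lox in a LIN9 wt library to 11765 of Serpinh1 in experiment 1, and from 159 counts of P4ha2 to 3857 of Serpinh1 in experiment 2. Levels are given as CPM, counts scaled to the size of the library after TMM normalization. The targeted genes were checked first, although counts over a whole gene say little where only 1 exon is deleted. Lin9 fell by 0.80 on the log2 scale in LIN9 KO with Sav1 wt in experiment 2 (adjusted p = 0.0027, edgeR's quasi-likelihood test), with log2 differences of -0.31 in experiment 1 (adjusted p = 0.130) and -0.16 in the Sav1 KO background (adjusted p = 0.586), where the groups overlapped. Sav1 was lower in every Sav1 KO library than in the Sav1 wt libraries of the same LIN9 genotype, with log2 differences of -0.50 (unadjusted p = 0.000305, adjusted p = 0.318) and -0.23 (adjusted p = 0.464). Of its exonic bases 25.4% are shared with Atl1 on the opposite strand, so reads there may belong to either gene.

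In control ventricles Serpinh1 was by far the most abundant of the 10 genes. Compared per kilobase of exonic length, its level was 340 ± 64.8 CPM per kb (SD, n = 3) in LIN9 wt of experiment 1 and 399 ± 21.6 CPM per kb in the control of experiment 2, which was 67.1% and 67.9% of the summed level of all 10. Loxl2 followed with 40.0 and 47.4 CPM per kb, then P4ha1 with 24.7 and 26.5 and Loxl1 with 21.6 and 24.5, the last pair with overlapping libraries in both experiments. Plod2, Pcolce, Plod3 and Lox were between 11.1 and 20.5 CPM per kb, and Plod2 and Pcolce overlapped in both. P4ha2 and Plod1 were lowest, at 9.29 and 9.13 CPM per kb in experiment 1 and 9.70 and 9.60 in experiment 2, with overlapping libraries.

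In LIN9 KO ventricles the order of the lower genes changed. The level of P4ha1 was 75.8 ± 12.6 CPM per kb in experiment 1 and 95.2 ± 9.53 with Sav1 wt in experiment 2, which put its libraries among those of Loxl2, at 78.7 ± 4.41 and 99.0 ± 20.9 CPM per kb. P4ha2 was at rank 8, beside rank 9 in both controls, at 22.9 and 28.5 CPM per kb, where it overlapped with Plod3 at 19.5 and 22.1. Serpinh1 still led in every group, but its share of the summed level was 56.6% and 52.7%, and 54.4% in the double KO, against 67.5% with Sav1 KO alone. The summed level of the 10 genes was 507 CPM per kb in LIN9 wt and 826 in LIN9 KO of experiment 1. In experiment 2 it was 587 in the control, 922 in LIN9 KO, 614 in Sav1 KO and 859 in the double KO.

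**Figure D1:**
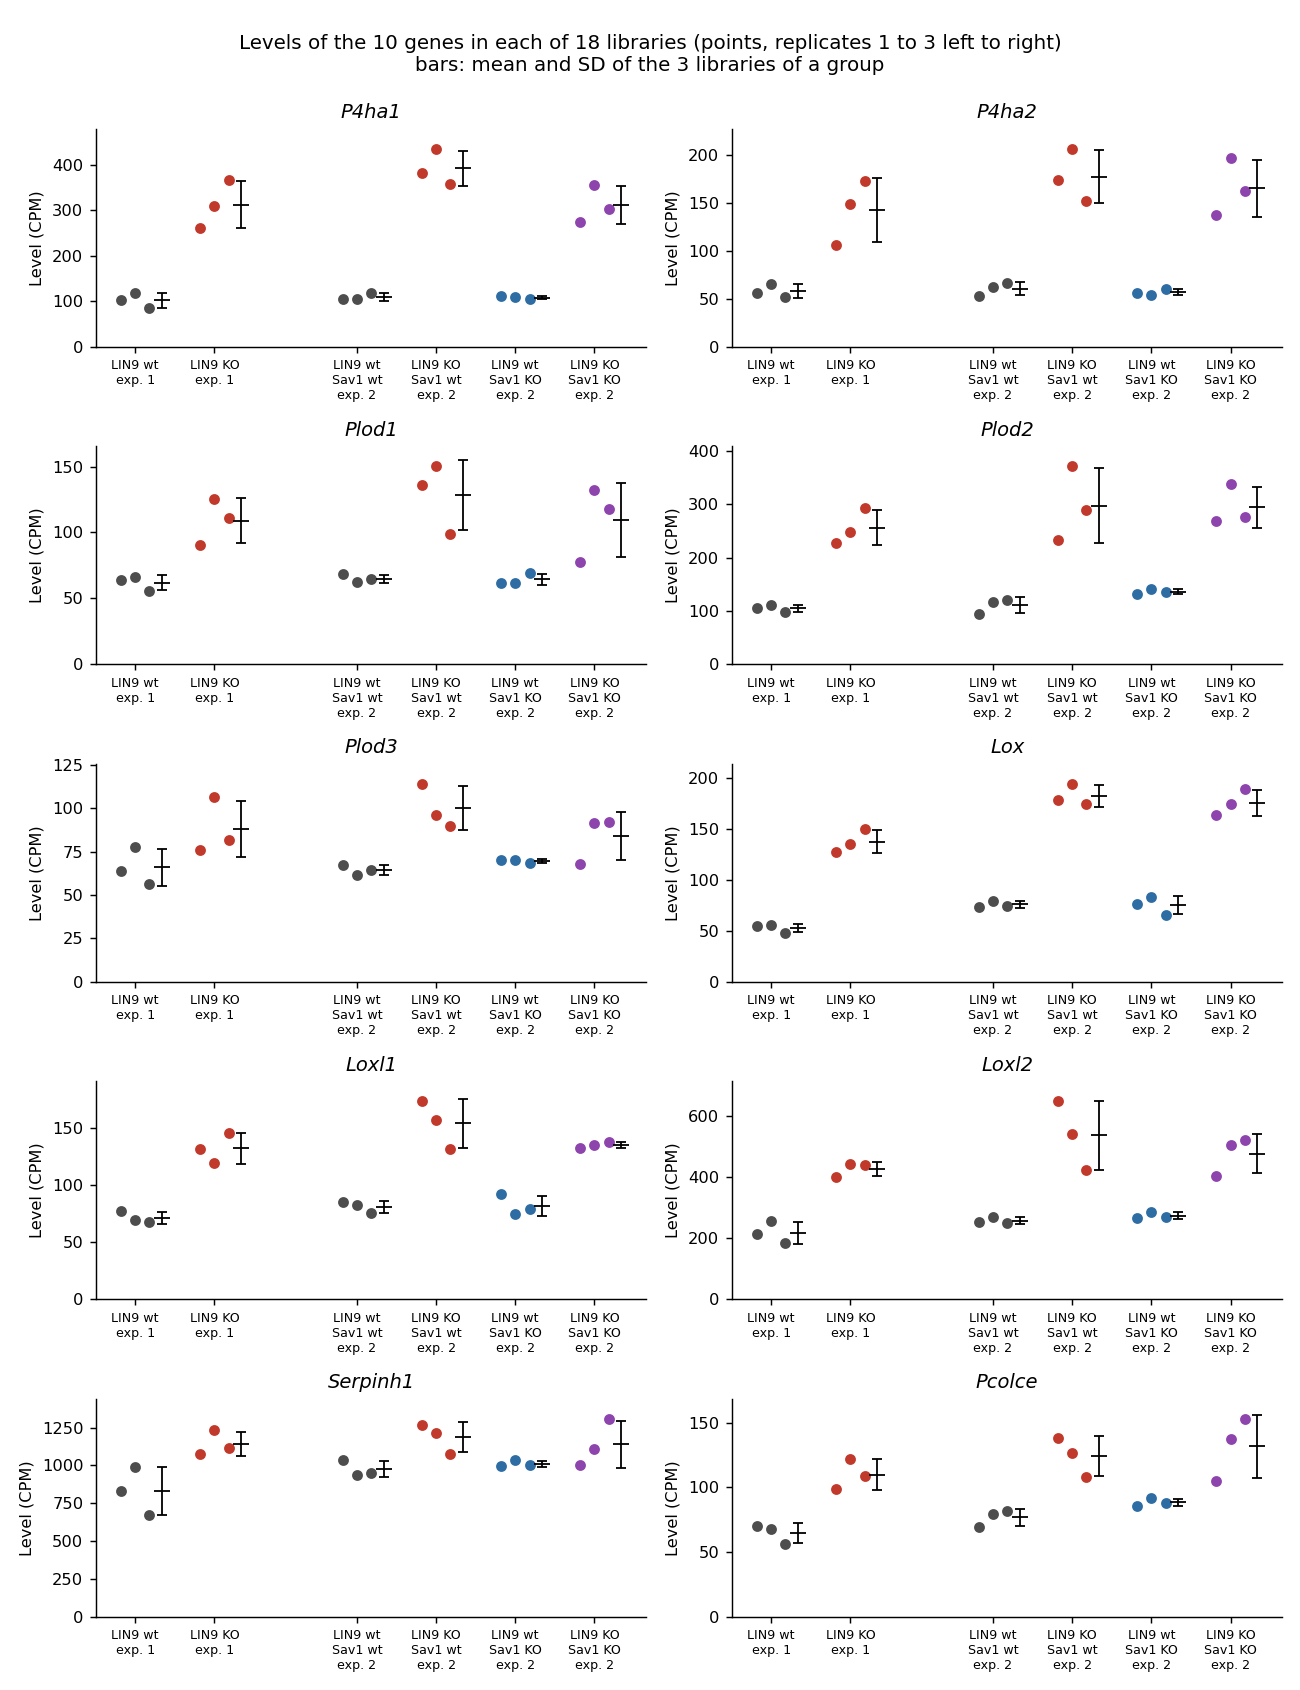
Level of each of the 10 genes in CPM (y axis, from 0, a scale for each gene) in every library (points) of the 6 groups, with the mean and SD of 3. P4ha1 libraries lie between 83.9 and 119 CPM in all groups with LIN9 wt and between 261 and 435 CPM in all groups with LIN9 KO, while the LIN9 wt and LIN9 KO groups of Serpinh1 and Plod3 differ by 1.55-fold at most.

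Deletion of Lin9 was accompanied by higher transcript levels of nearly all of these genes. The genes were chosen with earlier results of these data known, so the shares of all genes beside their counts are a description. At an adjusted p under 0.05, 9 of 10 members were called higher in LIN9 KO of experiment 1, where 11.1% of all 19752 genes tested were called higher. In experiment 2, 10 of 10 were called higher with Sav1 wt (12.8% of all 17675 genes) and 8 of 10 with Sav1 KO (11.8%), and 0 were called lower in each of the 3 comparisons (9.78%, 10.5% and 11.6% of all genes). The median log2 fold change of the 10 genes was 0.93, 1.02 and 0.78, beside 0.016, 0.0086 and 0.032 over all genes tested. The libraries of the groups did not overlap, with LIN9 KO higher, for 9, 10 and 8 of the members, against 18.4%, 18.4% and 21.9% of all genes. Both comparisons of experiment 2 come from the same fit of 12 libraries but use different control libraries. In bulk RNA of a ventricle, more cells that express a gene and more RNA per cell cannot be told apart, nor can fewer cells and less RNA per cell.

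Of the 10 members, the prolyl 4-hydroxylase genes differed most in experiment 2, and P4ha1 did so in experiment 1 too. P4ha1, the major catalytic alpha subunit, was at 102, 119 and 83.9 CPM in the LIN9 wt libraries of experiment 1 and at 261, 309 and 365 CPM in LIN9 KO. The experiment 2 control libraries had 105, 104 and 118 CPM, and those of LIN9 KO 382, 435 and 358 CPM. Every LIN9 KO library was far above every control library of its experiment. With Sav1 KO, the level was 111, 108 and 104 CPM with LIN9 wt and 274, 355 and 303 CPM in the double KO. The change was 3.07-fold in experiment 1 (log2 fold change 1.62, SE 0.15, adjusted p = 6.87e-06), 3.59-fold with Sav1 wt (1.84, SE 0.11, adjusted p = 7.58e-13) and 2.88-fold with Sav1 KO (1.53, SE 0.11, adjusted p = 3.44e-11). By log2 fold change P4ha1 was at rank 578 of the 19752 genes tested in experiment 1. Of the 17675 genes tested in experiment 2, it was at rank 411 with Sav1 wt and at rank 783 with Sav1 KO.

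P4ha2, a second alpha subunit, was at 55.9, 66.0 and 52.1 CPM in LIN9 wt and at 106, 149 and 173 CPM in LIN9 KO of experiment 1. It was at 52.9, 62.0 and 66.8 CPM in the control of experiment 2 and at 174, 207 and 152 CPM in LIN9 KO. The Sav1 KO libraries had 55.9, 54.0 and 60.4 CPM and the double KO 137, 197 and 162 CPM. The LIN9 KO libraries were above the LIN9 wt ones in all 3 comparisons, although they spread more among themselves. The fold was 2.46, 2.93 and 2.91, with log2 fold changes of 1.30 (SE 0.17, adjusted p = 0.000236), 1.55 (SE 0.13, adjusted p = 3.97e-09) and 1.54 (SE 0.13, adjusted p = 4.71e-09).

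Plod2 changed most of the lysyl hydroxylases. Its level was 106, 110.5 and 98.4 CPM in LIN9 wt and 228, 249 and 292 CPM in LIN9 KO of experiment 1. The levels of experiment 2 were 93.7, 116 and 121 CPM in the control against 233, 371 and 288 CPM in LIN9 KO, and 132, 140.5 and 134 CPM in Sav1 KO against 268, 338 and 276 CPM in the double KO. The groups did not overlap in any of these comparisons. Plod2 was 2.44-fold higher in experiment 1 (adjusted p = 3.54e-06), 2.69-fold with Sav1 wt (adjusted p = 1.54e-06) and 2.17-fold with Sav1 KO (adjusted p = 2.03e-05). Plod1, the form best known for helical lysines, was lower in its change, with log2 fold changes of 0.82 (SE 0.12), 0.98 (SE 0.18) and 0.76 (SE 0.18) and adjusted p of 0.000247, 0.00103 and 0.00673. Its libraries ranged from 55.4 to 69.3 CPM over all groups with LIN9 wt and from 77.7 to 150.2 CPM over all groups with LIN9 KO.

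Plod3, which also transfers sugars to hydroxylysine, passed the test in only 1 of the 3 comparisons. In experiment 1 its libraries had 63.8, 77.4 and 56.4 CPM in LIN9 wt and 76.1, 107 and 81.5 CPM in LIN9 KO, so that the groups overlapped (log2 fold change 0.42, SE 0.14, adjusted p = 0.0517). With Sav1 wt in experiment 2 the control libraries had 67.5, 61.3 and 64.3 CPM and the LIN9 KO libraries 114, 96.1 and 89.8 CPM, and the gene rose by 0.64 on the log2 scale (SE 0.12, adjusted p = 0.000235). With Sav1 KO it was at 70.3, 69.9 and 68.2 CPM and, in the double KO, at 67.8, 91.6 and 91.8 CPM (log2 fold change 0.27, SE 0.12, adjusted p = 0.113). The library of the double KO with the low value was replicate 1, and without it the same difference was 0.37 with an adjusted p of 0.0267. In experiment 1 the adjusted p was below 0.05 under 6 of 12 alternatives, such as DESeq2 (0.0455) and a replicate block (0.00202). The difference between Plod2 and Plod3 in their response was not tested.

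The lysyl oxidases rose together. Lox, which crosslinks collagen and elastin and lies at chr18:52516067-52529867 of mm10 on the minus strand, had 54.8, 55.4 and 48.2 CPM in LIN9 wt and 128, 135 and 149 CPM in LIN9 KO of experiment 1. For experiment 2 the values were 73.5, 79.5 and 74.4 CPM in the control and 178, 194 and 174 CPM in LIN9 KO, then 76.4, 83.1 and 65.8 CPM in Sav1 KO and 163, 174 and 189 CPM in the double KO. The SD of the Lox replicates was between 4.28% and 11.6% of the group mean, highest in Sav1 KO with LIN9 wt. The groups were far apart in each comparison. The folds were 2.60 (log2 fold change 1.38, SE 0.11, adjusted p = 9.24e-07), 2.40 (1.27, SE 0.11, adjusted p = 8.49e-10) and 2.34 (1.22, SE 0.11, adjusted p = 1.54e-09).

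Loxl2, the most abundant of the lysyl oxidase family here and a known modifier of basement membrane collagen, had 213, 254 and 182 CPM in LIN9 wt and 398, 440.3 and 438 CPM in LIN9 KO of experiment 1, a change of 1.97-fold (adjusted p = 8.24e-05). In experiment 2 the control had 252, 269 and 248 CPM and LIN9 KO 647, 538 and 421 CPM, which was 2.09-fold (adjusted p = 7.91e-07). It was 1.74-fold higher with Sav1 KO (adjusted p = 3.44e-05). Loxl1, known for elastic fibres, ranged from 67.6 to 91.9 CPM in the groups with LIN9 wt and from 119 to 174 CPM in those with LIN9 KO. Its folds were 1.85, 1.91 and 1.65, with adjusted p of 4.27e-05, 4.19e-07 and 1.90e-05. No library of Lox, Loxl1 or Loxl2 with LIN9 KO fell within the range of the LIN9 wt libraries of the same experiment.

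Serpinh1 had the smallest change of the members in experiment 2, and only Plod3 a smaller one in experiment 1, although its level was the highest. It had 829, 989 and 672 CPM in LIN9 wt and 1079, 1234 and 1116 CPM in LIN9 KO of experiment 1, a 1.38-fold difference (log2 fold change 0.46, 95% interval 0.15 to 0.77, adjusted p = 0.0338). With Sav1 wt in experiment 2 it had 1035, 939 and 948 CPM in the control and 1268, 1214 and 1077 CPM in LIN9 KO, 1.22-fold (0.28, 95% interval 0.08 to 0.49, adjusted p = 0.0432). With Sav1 KO the libraries had 996, 1033 and 1006 CPM and, in the double KO, 1002, 1111 and 1309 CPM, and the groups overlapped (0.17, 95% interval -0.04 to 0.38, adjusted p = 0.240). Both calls were close to the threshold. That of experiment 1 was lost under 4 of 12 alternatives, which left out LIN9 wt replicate 1 or 3 or LIN9 KO replicate 1 or 2 (adjusted p up to 0.168), and that of experiment 2 under 12 of 19, among them DESeq2 (adjusted p = 0.0544) and the fit of only the 6 libraries compared (adjusted p = 0.135). Log2 fold changes of Serpinh1 were above 0 in all of these alternatives.

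Pcolce had 70.4, 68.1 and 56.1 CPM in LIN9 wt and 98.6, 122 and 109 CPM in LIN9 KO of experiment 1. In experiment 2 it had 69.1, 79.1 and 82.0 CPM in the control and 138, 127 and 108 CPM in LIN9 KO, and 85.8, 91.5 and 87.7 CPM in Sav1 KO against 105, 137 and 153 CPM in the double KO. The groups did not overlap in any of the 3 comparisons. The folds were 1.69, 1.62 and 1.49, with adjusted p of 0.000278, 0.000116 and 0.000938.

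**Figure D2:**
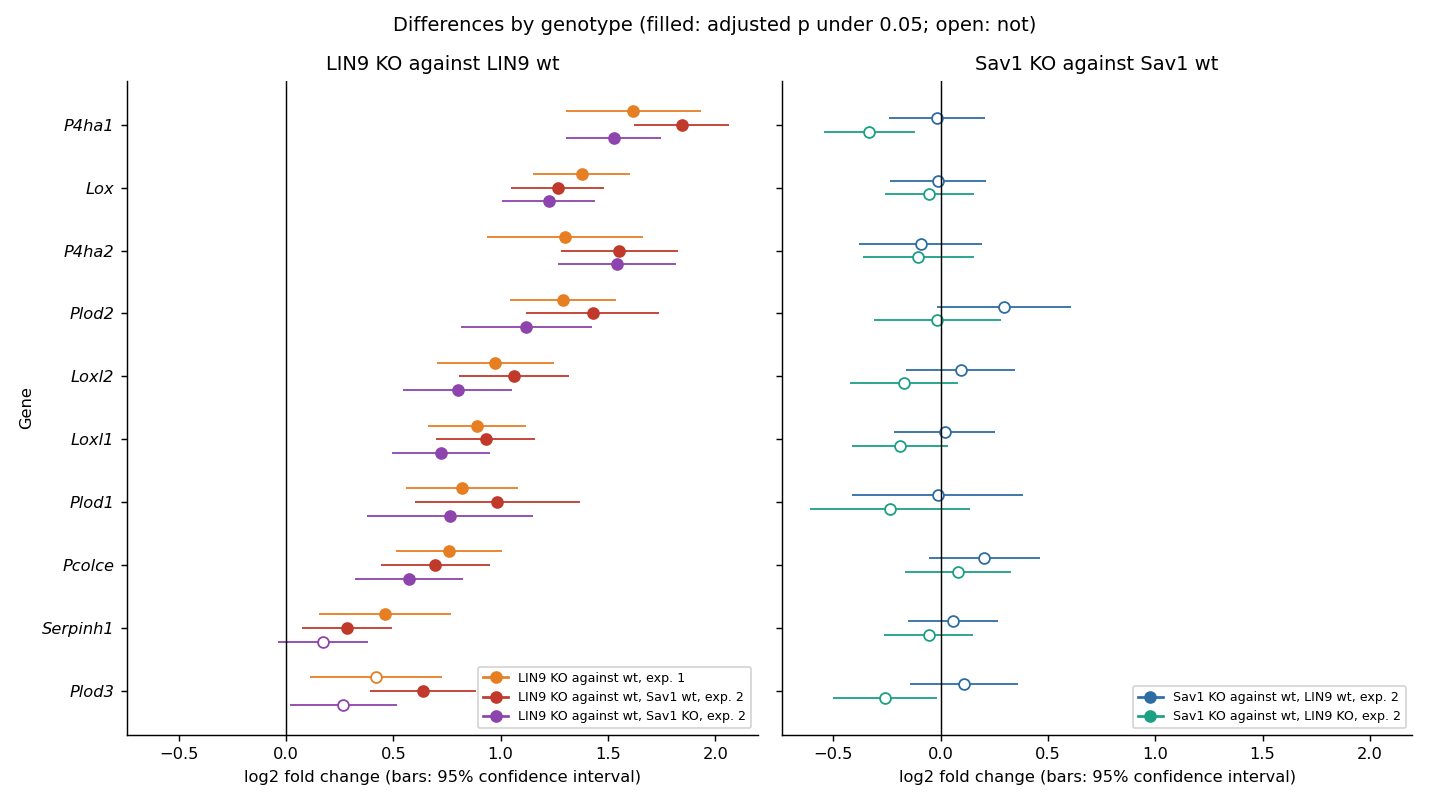
Log2 fold change of the 10 genes (points) with its 95% confidence interval (bars) in LIN9 KO against LIN9 wt for experiment 1 and for both Sav1 backgrounds of experiment 2, and in the Sav1 comparisons. The LIN9 effects run from 0.17 for Serpinh1 with Sav1 KO to 1.84 for P4ha1 with Sav1 wt, and the Sav1 effects lie between -0.33 and 0.30.

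The makeup of the enzyme families by transcript was compared next. These shares and the ratios that follow were chosen after the values had been seen, and with 3 libraries a group an exact permutation test cannot go below p = 0.1, so they are given as ranges without a test. Of the 3 prolyl 4-hydroxylase alpha subunits per kilobase, P4ha1 made up 56.4% ± 2.41 in LIN9 wt and 64.3% ± 1.40 in LIN9 KO of experiment 1, 56.0% ± 2.68 and 66.2% ± 0.951 with Sav1 wt, and 54.4% ± 0.845 and 61.0% ± 0.395 with Sav1 KO (SD, n = 3). The libraries of LIN9 KO were above those of LIN9 wt each time. The share of P4ha3 was 22.2%, 23.6% and 26.7% with LIN9 wt and 16.4%, 14.0% and 17.8% with LIN9 KO, with ranges that overlapped in experiment 1 only, and that of P4ha2 stayed between 18.9% and 21.4% on average.

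Among the lysyl hydroxylases, Plod2 rose from 45.2% to 57.2% of the family in experiment 1, from 46.1% to 57.0% with Sav1 wt and from 50.2% to 61.3% with Sav1 KO, by group means whose libraries did not overlap. Plod3 made up 33.6%, 32.2% and 30.8% with LIN9 wt and 23.4%, 23.3% and 20.8% with LIN9 KO, again without overlap. Among the 5 lysyl oxidases the makeup differed less. Loxl2 stayed between 51.8% and 54.2% in every group, while Lox was at 14.9%, 17.7% and 16.8% with LIN9 wt and 19.0%, 20.5% and 21.7% with LIN9 KO, overlapping with Sav1 wt only.

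**Figure D3:**
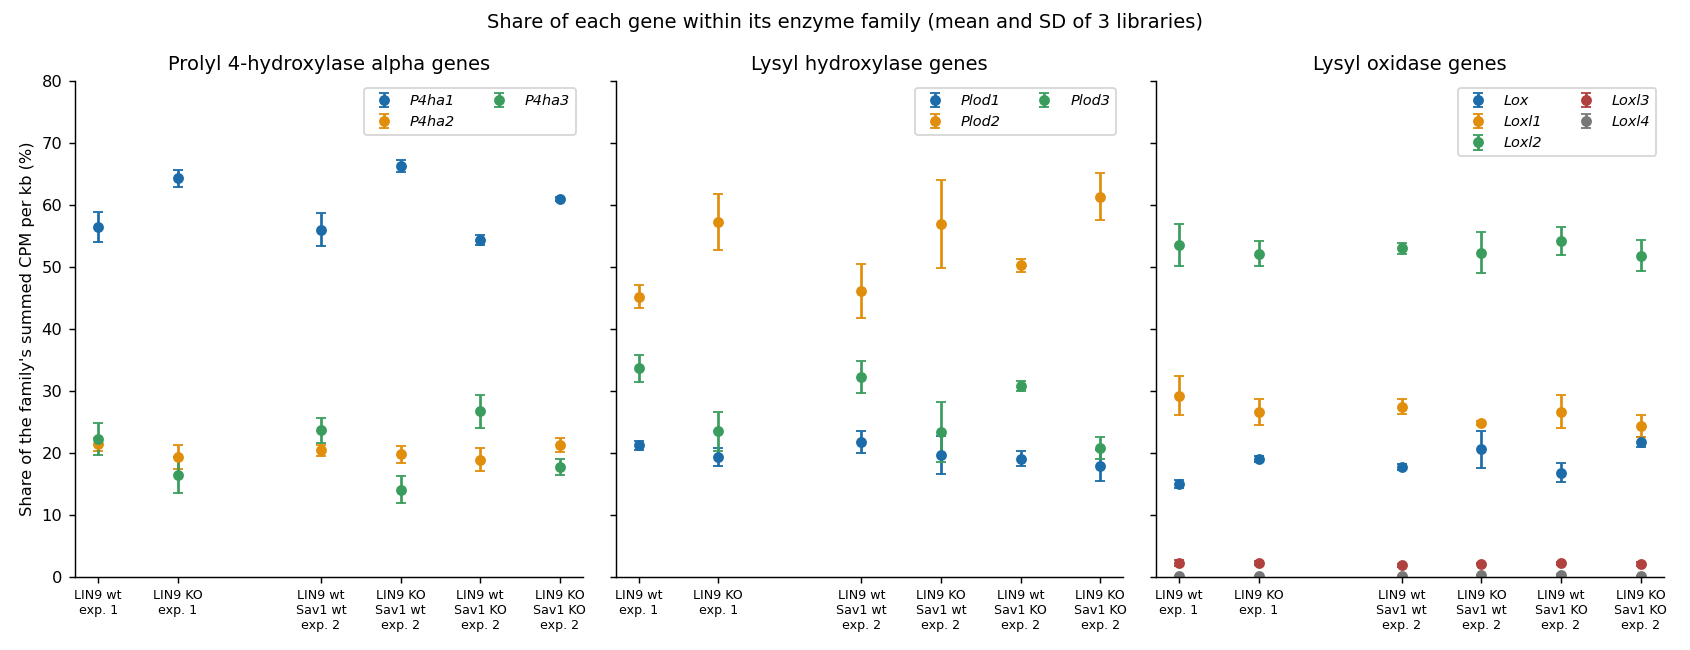
Share of each gene (y axis, percent of the summed CPM per kb of its family) in the prolyl 4-hydroxylase, lysyl hydroxylase and lysyl oxidase families, by group, as the mean (points) and SD (bars) of 3 libraries. P4ha1 and Plod2 make up more of their families in the groups with LIN9 KO, and Loxl2 stays near 52% to 54% in all 6 groups.

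The members were next set against the transcripts of proteins they act with. P4ha3, a further alpha subunit that is not a member, was left out of the sums. The sum of P4ha1 and P4ha2 per kilobase was 0.201 ± 0.00475 of P4hb, their shared beta subunit, in LIN9 wt of experiment 1 and 0.339 ± 0.0445 in LIN9 KO. The ratio in experiment 2 was 0.201 ± 0.0175 in the control, 0.425 ± 0.0426 in LIN9 KO, 0.201 ± 0.00883 in Sav1 KO and 0.372 ± 0.0433 in the double KO. P4hb itself rose, by 0.77, 0.69 and 0.64 on the log2 scale in the 3 LIN9 comparisons, but less than P4ha1 and P4ha2. The ranges of the ratio did not overlap.

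Against the major fibrillar collagen chains the members diverged. Serpinh1 per kilobase was 1.87 ± 0.345 times the sum of Col1a1, Col1a2 and Col3a1 in LIN9 wt of experiment 1 and 1.21 ± 0.0582 in LIN9 KO, then 1.76 ± 0.0952 in the control of experiment 2, 0.946 ± 0.122 in LIN9 KO, 1.69 ± 0.123 in Sav1 KO and 1.02 ± 0.0764 in the double KO. The libraries with LIN9 KO were below all those with LIN9 wt. The sum of Lox, Loxl1 and Loxl2 over the same chains was 0.401 and 0.381 in experiment 1, 0.388 and 0.355 with Sav1 wt and 0.371 and 0.363 with Sav1 KO, with overlapping ranges. P4ha1 and P4ha2 together were at 0.187 and 0.253 of the chains in experiment 1, 0.161 and 0.241 with Sav1 wt and 0.144 and 0.224 with Sav1 KO, without overlap. The ratio of Pcolce to Bmp1, the proteinase it enhances, was 1.31 and 1.56 in experiment 1 with overlapping libraries, 1.34 and 1.63 with Sav1 wt without overlap, and 1.58 and 1.64 with Sav1 KO with overlap. The Sav1 KO libraries with LIN9 wt, between 1.53 and 1.65, were above those of the control, between 1.33 and 1.37.

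**Figure D4:**
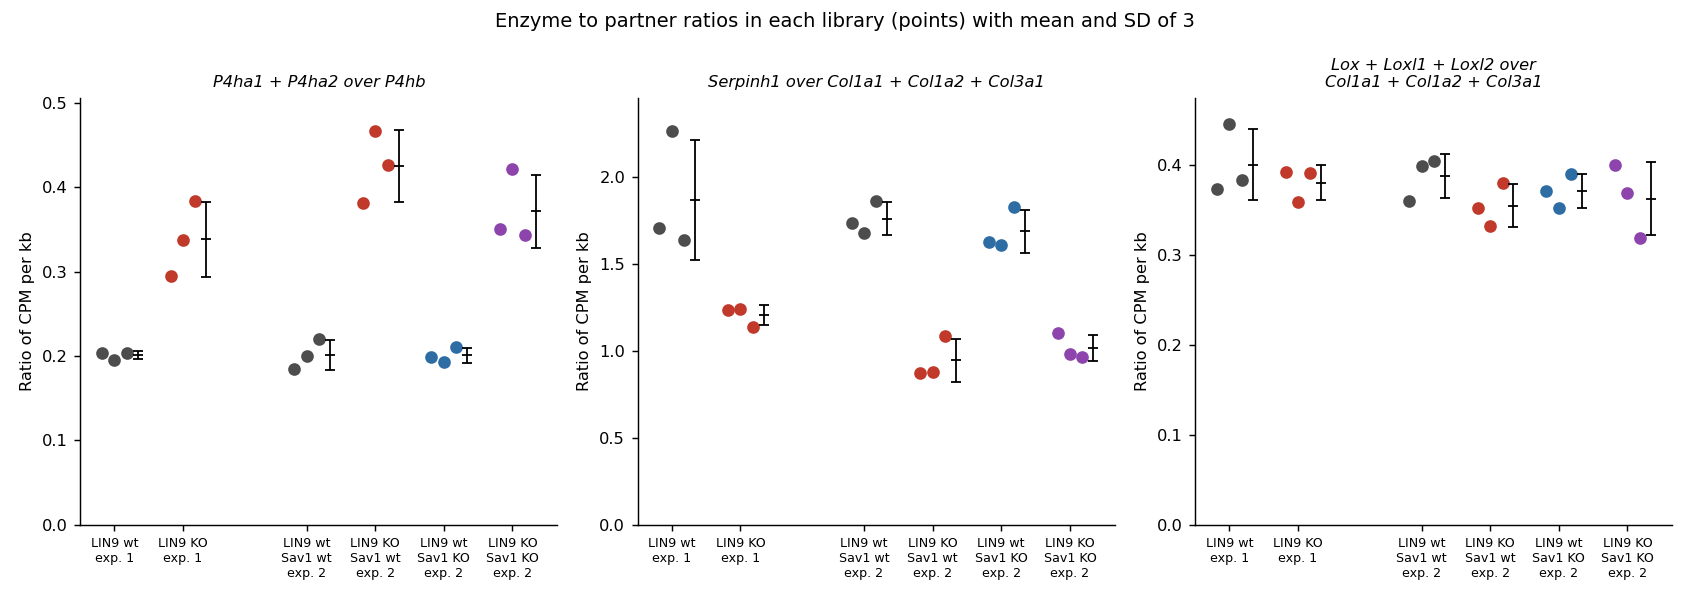
Ratios of CPM per kb in each library (points), with mean and SD of 3, for P4ha1 plus P4ha2 over P4hb, Serpinh1 over the 3 fibrillar chains, and Lox, Loxl1 and Loxl2 over the same chains. The first ratio is higher and the second lower in every library with LIN9 KO than in any with LIN9 wt, and the third overlaps between all groups.

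Most other genes of the collagen pathway were also called higher, the smallest share in the list for propeptide cleavage and secretion. Of 12 collagen chains, 9 were called higher and 0 lower in each LIN9 comparison, with a median log2 fold change of 1.08, 0.97 and 0.88. Col6a1 rose by 1.38 and 1.81 (experiment 1, then experiment 2 with Sav1 wt), Col6a3 by 1.36 and 1.16 and Col1a2 by 1.15 and 1.32. The chains that did not pass were Col5a3 and the basement membrane chains Col4a1 (0.30 and 0.53) and Col4a2 (0.40 and 0.55). Of 14 partners in hydroxylation, glycosylation and folding, 11, 10 and 10 were called higher (medians 0.53, 0.51 and 0.60). P4ha3 rose by 0.98 and 0.83, and the prolyl 3-hydroxylase P3h1 and its family member P3h3 rose by 0.69 and 0.83 and by 0.82 and 0.86. Hspa5, the general chaperone of the endoplasmic reticulum, did not pass, at 0.39 (adjusted p = 0.12) and -0.09 (adjusted p = 0.58).

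Of 10 procollagen proteinases and secretion genes tested, 5 were called higher and 0 lower in each comparison (medians 0.45, 0.21 and 0.49). Bmp1 rose by 0.51 and 0.42, the N-propeptidase Adamts2 by 0.77 and 0.66, and the coat protein gene Sec23a by 0.53 and 0.48. Adamts14 differed by 0.84 (adjusted p = 0.0016) and 0.65 (adjusted p = 0.033), of which the latter call was lost under 9 of 19 alternatives. Of 12 other lysyl oxidases and matrix partners, 11, 10 and 8 were called higher, with medians of 0.87, 0.66 and 0.82. The proteoglycan Bgn rose by 1.50 and 1.43 and Loxl3 by 0.97 and 1.26. Loxl4 was close to the limit of counting, at 0.21 to 0.31 CPM in LIN9 wt and 0.76 to 0.84 CPM in LIN9 KO of experiment 1, so that no fold is given.

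Genes of the pathways known to induce these enzymes differed unevenly. Of 12 genes of the TGF-beta pathway, 8, 9 and 9 were called higher, with medians of 0.74, 0.70 and 0.73. The inhibitor Smad7 rose by 1.22 and 1.45. Tgfb3 was the only ligand called, at 0.83 and 1.01, while Tgfb1 differed by -0.05 and 0.29 and Tgfb2 by 0.31 and 0.02, neither of which passed. Of 15 hypoxia response genes, 2, 8 and 5 were called higher and 0, 0 and 2 lower, with medians of 0.11, 0.34 and 0.22. Beside them stand 11.1%, 12.8% and 11.8% of all genes called higher and 9.78%, 10.5% and 11.6% called lower, and the 2 called higher in experiment 1 and the 2 called lower with Sav1 KO are close to these shares. The prolyl hydroxylase Egln3 differed by 1.70 (adjusted p = 0.047) and 2.00 (adjusted p = 0.00033) and Bnip3 by 0.80 (adjusted p = 0.036) and 1.43 (adjusted p = 4.9e-07), and the experiment 1 calls were lost under 6 and 5 of 12 alternatives. With these settings the count for experiment 1 ranged from 0 to 6, the highest without LIN9 KO replicate 1, and the count of 5 with Sav1 KO was 3 without any 1 of the Sav1 KO libraries or without double KO replicate 2. Vegfa differed by 0.67 (adjusted p = 0.10) and 1.14 (adjusted p = 0.0012), and the glycolytic genes Pgk1 (0.01 and 0.15) and Ldha (0.07 and 0.10) did not pass in any of the 3.

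Of 10 genes for the supply of ascorbate, iron and copper, on which these enzymes depend, 3, 4 and 2 were called higher and 0, 2 and 0 lower, beside 11.1%, 12.8% and 11.8% of all genes called higher and 9.78%, 10.5% and 11.6% called lower. The 2 called lower were 1 under 8 of 19 alternatives, and the 2 called higher with Sav1 KO were 1 without Sav1 KO replicate 1 or 2 or double KO replicate 1. The ferritin chains Fth1 and Ftl1 rose by 0.89 and 0.78 and by 0.77 and 0.78. The copper pump Atp7a, which loads lysyl oxidases, rose by 0.71 and 0.85, and the copper importer Slc31a1 did not pass, at 0.17 and -0.18.

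Markers of other cell types moved with the LIN9 comparisons, and their part in the results was not tested. Summed cardiomyocyte markers (9 genes, among them Tnnt2 and Myl2) were between 21538 and 21958 CPM in LIN9 wt and between 9671 and 13713 CPM in LIN9 KO of experiment 1, and between 23905 and 25278 CPM and between 12104 and 13477 CPM with Sav1 wt. With Sav1 KO they were between 25927 and 27089 CPM and, in the double KO, between 11990 and 15111 CPM. In each LIN9 comparison 6 of 9 were called lower and 0 higher. The ventricular light chain gene Myl2 fell by 1.48 and 1.65 on the log2 scale. Of 12 fibroblast and cushion markers, 10, 9 and 11 were called higher and 1 lower (Mfap5, at -1.26, -1.55 and -0.67, the last of these calls lost under 8 of 19 alternatives), and Tcf21 rose by 1.31 and 1.34. The last count was 6 without Sav1 KO replicate 3 and 7 without double KO replicate 1. Their summed level was between 1361 and 1594 CPM in LIN9 wt and between 2458 and 2816 CPM in LIN9 KO of experiment 1. In experiment 2 it was between 1566 and 2204 CPM in the control, 2351 and 3239 CPM in LIN9 KO, 1670 and 2048 CPM in Sav1 KO and 3304 and 3484 CPM in the double KO. Lum and Dcn were in this list and in that of the matrix partners.

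Of 7 epicardial markers, 6 were called higher in each comparison, Wt1 by 0.94 and 1.38 and Upk1b by 1.13 and 1.45. Of 6 macrophage markers 5, 4 and 5 were called higher, C1qb by 1.18 and 1.35 and Adgre1 by 1.20 and 0.92. Of 8 endothelial markers 3, 3 and 5 were called higher (Emcn at 0.75 and 0.72, Pecam1 at 0.63 and 0.56) and 0, 1 and 1 lower, near the shares of 9.78%, 10.5% and 11.6% of all genes, the 1 being the VEGF receptor gene Kdr (-0.72, adjusted p = 0.134, in experiment 1, -0.83 with Sav1 wt and -0.67 with Sav1 KO). Of 4 smooth muscle markers Tagln rose by 1.39 and 1.07 and Acta2 was called lower in experiment 2. Erythroid markers differed most, with 6, 7 and 7 of 7 called higher. Their summed level was between 3505 and 5162 CPM in LIN9 wt and between 11941 and 31138 CPM in LIN9 KO of experiment 1. In experiment 2 it was between 2146 and 2624 CPM in the control, 7328 and 13582 CPM in LIN9 KO, 1759 and 2269 CPM in Sav1 KO and 4020 and 11613 CPM in the double KO. Rhag and Epb42 differed by 3.61 and 2.87 and by 3.06 and 2.81, of which the experiment 1 calls were lost without LIN9 KO replicate 2, and that of Epb42 also without LIN9 wt replicate 1 or 3. Without that library 2 of 7 erythroid markers were called in experiment 1. Alas2 was at 0 counts in all 18 libraries. Of genes of neighbouring tissues, the liver genes Alb and Afp were each at 0 in 13 of 18 libraries and the lung gene Sftpc in 17. Alb and Afp reached 30 counts each in LIN9 KO replicate 3 of experiment 1 and 11 and 6 counts in LIN9 wt replicate 3, against 0 or 1 in every other library, and without that LIN9 KO library 9 members were called higher in experiment 1. The cartilage gene Col9a1 rose by 1.28 and 0.93, while Acan, another cartilage gene at 9 to 27 counts a library, did not pass at 0.76 and -0.28.

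**Figure D5:**
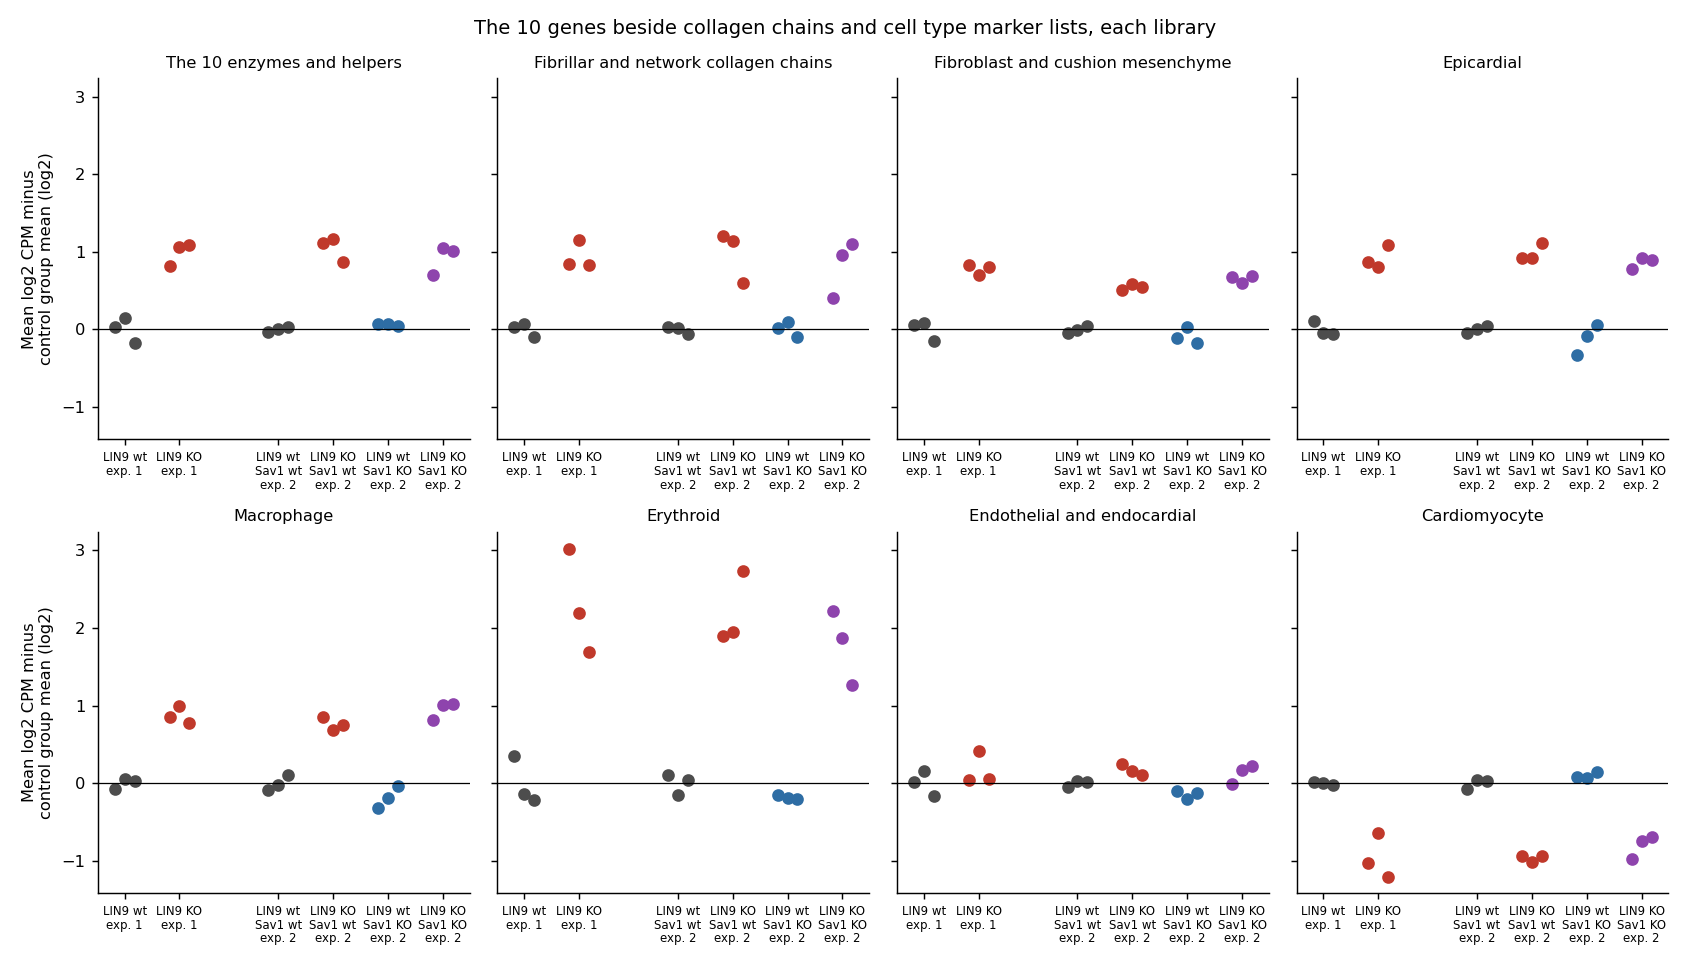
Mean difference in log2 CPM from the control group of the same experiment (y axis) for the 10 genes and for lists of collagen chains and cell type markers, with each library as a point. In LIN9 KO of experiment 1 the mean is 0.99 for the 10 genes, 0.94 for collagen chains, 0.78 for fibroblast and cushion markers, 2.30 for erythroid markers and -0.96 for cardiomyocyte markers.

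In 4 of the 6 groups most members were lowest in the same library. In LIN9 wt of experiment 1, replicate 3 was the lowest for 10 of 10 members, in LIN9 KO of experiment 1 replicate 1 for 9, in LIN9 KO of experiment 2 replicate 3 for 9, and in the double KO replicate 1 for 10. In the control of experiment 2 the lowest library was divided 4, 4 and 2 over replicates 1 to 3, and in Sav1 KO 4, 3 and 3. Each of the 4 libraries that were lowest for 9 or 10 members was also the library of its group with the highest summed erythroid level, at 5162, 31138, 13582 and 11613 CPM, and the part of this in the results was not tested. Without LIN9 wt replicate 3, 8 members were called higher in experiment 1, and without LIN9 KO replicate 1, 9 were. The counts were 10 with Sav1 wt without LIN9 KO replicate 3 and 9 with Sav1 KO without double KO replicate 1. Ribosomal RNA, which poly(A) selection should remove, differed between libraries of experiment 2. Rn18s-rs5 was at 4383, 4960 and 6530 CPM in the control, 827, 1164 and 20025 CPM in LIN9 KO, 1868, 1902 and 2581 CPM in Sav1 KO and 7760, 13646 and 12634 CPM in the double KO, and it overlapped between the groups of experiment 1. It was thus far higher in replicate 3 than in the other LIN9 KO libraries, and higher in every double KO library than in every Sav1 KO library, and its part in the results was not tested. With the 13 haemoglobin genes left out before scaling, 10, 9 and 8 members were called higher.

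None of the 10 genes passed the threshold in the comparisons of Sav1 KO with Sav1 wt. With LIN9 wt, 0 of 10 members were called, where 3 of 17675 genes (0.0170%) were, and edgeR gave an unadjusted p under 0.05 for 0 members and for 693 genes (3.92%). With the replicate number as a block in a fit of the 9 libraries other than the double KO, 41 genes and again 0 members were called. With LIN9 KO, 0 of 10 were called, as were 2 of all genes (0.0113%), and 2 members and 2093 genes (11.8%) had an unadjusted p under 0.05. Averaged over both LIN9 backgrounds, 0 of 10 and 8 of all genes (0.0453%) were called, with 1 member and 1564 genes (8.85%) at an unadjusted p under 0.05. DESeq2 also called 0 members in each.

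The 95% intervals, from the main fit without a replicate block, give the sizes of a Sav1 effect that these libraries allow with LIN9 wt. Log2 fold changes were between -0.09 for P4ha2 (95% interval -0.38 to 0.19) and 0.30 for Plod2 (-0.02 to 0.61, unadjusted p = 0.062). Plod2 had 93.7, 116 and 121 CPM in the control and 132, 140.5 and 134 CPM in Sav1 KO, which did not overlap. Plod3 and Pcolce, too, had no overlap with Sav1 KO higher, at log2 differences of 0.11 and 0.20, where 5.97% of all genes had this pattern. For Lox the interval was -0.24 to 0.21, for P4ha1 -0.24 to 0.21 and for Serpinh1 -0.15 to 0.26.

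With LIN9 KO, P4ha1 had 382, 435 and 358 CPM with Sav1 wt and 274, 355 and 303 CPM in the double KO, so that all libraries of the double KO were lower, a pattern of 7.88% of all genes. The log2 difference was -0.33 (95% interval -0.54 to -0.12, unadjusted p = 0.00313, adjusted p = 0.186). It was the only member to pass under an alternative, at -0.40 and an adjusted p of 0.0496 without LIN9 KO replicate 3. Plod3 differed by -0.26 (unadjusted p = 0.0377, adjusted p = 0.390), with overlapping libraries, and the others lay between -0.24 and 0.08. In this comparison 9 of 10 members had a log2 difference below 0, where the median over all genes tested was 0.00093. So did 14 of 15 hypoxia response genes, 10 of 12 collagen chains and 7 of 7 erythroid markers, but 5 of 12 fibroblast and cushion markers. These differences rest on the same libraries and are not independent.

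In the double KO, 9 of 10 members were called higher than in the control, where 10.7% of all genes were called higher. This comparison shares its control libraries with that of LIN9 KO and its double KO libraries with that of LIN9 KO in the Sav1 KO background, so it is no separate evidence. The log2 fold change was 1.51 for P4ha1 beside 1.84 in LIN9 KO alone, 1.45 for P4ha2 beside 1.55, 1.41 for Plod2 beside 1.43 and 1.21 for Lox beside 1.27. Serpinh1 did not pass, at 0.23 (adjusted p = 0.118), and Plod3 did, at 0.38 (adjusted p = 0.0268), a call that was lost under 5 of 19 alternatives. The interaction, which is the LIN9 effect with Sav1 KO minus that with Sav1 wt, was called for 0 of 10 members and 0 of all genes (0%), with 2 members and 1156 genes (6.54%) at an unadjusted p under 0.05, and DESeq2 called 0 members. The 2 members were Plod3 (-0.37, 95% interval -0.72 to -0.02, adjusted p = 0.756) and P4ha1 (-0.32, 95% interval -0.62 to -0.01, adjusted p = 0.760). All 10 estimates were below 0, while 49.9% of those of all genes were above it, and over the alternatives 7 to 10 of the members' estimates were below 0. The 10 estimates rest on the same libraries and are not independent. The pattern was not particular to the members. Interaction estimates were below 0 for 14 of 15 hypoxia response genes and 8 of 12 collagen chains, but for only 3 of 12 fibroblast and cushion markers. Lin9 itself was higher in each double KO library than in the LIN9 KO libraries with Sav1 wt, by 0.56 on the log2 scale (unadjusted p = 0.00862, adjusted p = 0.238), with an interaction of 0.64 (unadjusted p = 0.0233, adjusted p = 0.710), and its part in these values was not tested.

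The members were also compared by the shape of their levels over the 18 libraries, as the root mean square (RMS) difference of log2 CPM centred within each experiment, which is a description without a test. P4ha1 and P4ha2 differed by 0.161 on this log2 scale, Plod1 and Loxl2 as well as Loxl1 and Loxl2 by 0.151, and Plod3 and Serpinh1 by 0.136. The farthest pair was P4ha1 and Serpinh1, at 0.695. Among 12118 genes with at least 5 CPM on average in both experiments, those closest to Lox were Mmp2 (0.116), Mfap4 (0.137) and Soat1 (0.138). Those closest to P4ha1 were Tmem45a (0.179), Gfpt2 (0.185) and Spon2 (0.186), and those closest to Serpinh1 were Maged1 (0.0517), Ddb1 (0.0608) and Ganab (0.0818).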

How the data were processed

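RNA-seq libraries from E13.5 heart ventricles were analysed as whole-number read counts per gene, as deposited. Per the methods, the authors used TopHat (2.1.0), which runs Bowtie2, with the mm10 genome. Libraries were then evened out in depth to the one with the fewest mapped reads, so totals within an experiment are close by construction. The count of each Ensembl gene came from summarizeOverlaps. The overlap mode and the use of strand are not given in the sources used here. The authors' own comparisons (log2 fold change, log2 CPM, p-value and FDR from edgeR) stand in the same tables and were not used, and 0 columns of per-sample counts were left out. ChIP-seq samples, of which the series has 4, were left aside.

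TMM scaling was applied, and edgeR's quasi-likelihood test with robust estimates was run (R 4.3.3, edgeR 4.0.16) on genes with a mean count above 1, with experiment 1 and experiment 2 fitted apart and the 12 libraries of experiment 2 in 1 fit. P-values were adjusted by Benjamini-Hochberg over all genes tested, with a threshold of 0.05, and tests were two-sided. Intervals used the standard error and the degrees of freedom of each gene. Levels are TMM-scaled CPM, log2 CPM used a prior count of 2, and levels per kilobase used the exonic length of GENCODE M21, in which 48349 of 48709 identifiers matched. A total of 4 identifiers, which occurred more than once in each of the tables with identical values, were kept once. The procedure was tested on simulated data.

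The members and the lists of partner, regulator and marker genes were chosen with earlier results of these data known. Named beside the members were, from each partner list, the 3 genes with the largest mean log2 fold change of both LIN9 effects with Sav1 wt that passed in both with the same sign, and up to 2 from each of the other lists, and further list genes were named after their values were seen. A gene that this rule names is not reported here. Likeness was measured for Lox, P4ha1 and Serpinh1.

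Alternatives were RLE size factors, DESeq2 (1.42.0), no filter, a mean count above 10, haemoglobin genes left out, a replicate block, only the 6 libraries compared, and leaving out each library. The block was fitted over all 12 libraries of experiment 2 and, as an alternative chosen after seeing the data, over the 9 other than the double KO. The labels number replicates alike in all groups. Same-numbered libraries correlated in their deviations from the group means with r between 0.0470 and 0.237 in experiment 1. In experiment 2 every pair among the 3 groups other than the double KO was above 0.1 (0.115 to 0.663), while pairs with the double KO were between -0.117 and 0.153. For the block over 9 libraries, same-numbered libraries of those 3 groups were therefore taken as paired. The split is not sharp, since experiment 1 pairs reached 0.237 and an accepted pair was at 0.115. The main fits held no replicate block, so their p-values and intervals treat all libraries as unpaired, and the block entered only as an alternative.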

Additional observations from a re-analysis of the deposited data

How the results depend on the processing

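The numbers of members called higher in LIN9 KO stayed within 8 to 10 of 10 in experiment 1 (12 alternatives), 9 to 10 with Sav1 wt, 8 to 9 with Sav1 KO and 8 to 9 in the double KO (19 alternatives each). No member changed direction in these 4 comparisons over 690 fits, 21 fits lost a call and 7 gained one, and the calls lost were those of Serpinh1 and Plod3. For the Sav1 effect with LIN9 KO, leaving out single libraries gave 0 to 1 members called, the 1 being P4ha1 without LIN9 KO replicate 3, and the other Sav1 comparisons and the interaction kept 0 under each alternative. The causes of these changes were not tested.

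With the replicate block, 10, 10, 8 and 9 members were called higher in experiment 1, with Sav1 wt, with Sav1 KO and in the double KO, and 0 in the Sav1 comparisons and the interaction, and Plod3 of experiment 1 was the only member whose call the block changed. With the block over only the 9 libraries other than the double KO, chosen after seeing the data, 10 members were called higher with Sav1 wt and 0 for the Sav1 effect with LIN9 wt, where all genes called were 41 instead of 3.

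Over all genes, the 4131 called in experiment 1 were 2722 without LIN9 wt replicate 3. The counts of the Sav1 comparisons were small and moved most: 3 with LIN9 wt (0 to 31, and 41 with the block over 9 libraries), 2 with LIN9 KO (0 to 378, the highest without LIN9 KO replicate 3, 309 with no filter, 84 with the replicate block), 8 averaged (0 to 159) and 0 for the interaction (0 to 64). Total counts in experiment 2 were lower than in experiment 1, while standard errors of the LIN9 effects were not larger there throughout (Plod1, 0.18 with Sav1 wt beside 0.12, and Plod3, 0.12 beside 0.14).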
